A study of Gallus gallus with 6 samples.

Results

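The untreated primary chick lens cells are the 3 libraries that received no drug, of 6 libraries in the series. They were chosen by their label, and their values are described here as the starting state of the culture, without the other 3 libraries, whose cells received DMOG (a prolyl hydroxylase inhibitor that activates HIF1α) at 1 mM over 4 h. Lens epithelial cells came from White Leghorn chick embryos at embryonic day 10, were released from the lenses with trypsin, and grew on mouse laminin in Medium 199 with fetal bovine serum for 2 days before the experiment. The methods name them biological triplicates, but no source used here says how many embryos or separate dissections stand behind each library. Such a culture is not an intact lens, in which epithelium and fibers are layered and oxygen falls from surface to core. The quantity reported throughout is FPKM, which divides a locus's fragments by its transcript length and by the mapped fragments of its library, so a level is per transcript length and can be set beside the level of another gene.

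The vertebrate lens is a sphere of epithelial cells at the front and elongated fiber cells behind, wrapped in a basement membrane called the capsule. Fiber cells fill with crystallins, the water-soluble proteins that give the lens its refractive index; birds use delta crystallin, a relative of the urea cycle enzyme argininosuccinate lyase, in addition to the alpha and beta crystallins that all vertebrates share. As they mature, fiber cells join through connexin channels, build a beaded filament of their own and lose their organelles, while the epithelium keeps dividing and retains its organelles.

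The deposited table held 17340 loci. Leaving out 1052 loci whose name begins with a small RNA kept 16288 for ranking, although 31 of those left out also join a gene. The locus that joins LRR1 to a small RNA, left out in this way, had a mean of 3297 FPKM, above every ranked locus. Of the ranked loci, 9504 reached a mean of at least 1 FPKM over the 3 libraries, here called expressed loci. At this limit 8515 loci reached 1 FPKM in every library, 2978 loci had a mean of at least 10 FPKM, 127 of at least 100 FPKM and 3 of at least 1000 FPKM, while 2934 loci (18.0%) were listed at 0 in all 3. FPKM summed to 127034, 125159 and 141864 in untreated libraries 1, 2 and 3 without the small RNA loci, which held 31.4%, 26.4% and 29.9% of all FPKM. Library 3 also had the highest value at 46.0% of the expressed loci, which fell to 33.0% with the libraries scaled to the same sum, so counts of genes highest in library 3 are given on both scales below. Over the expressed loci, Pearson's r of log2(FPKM + 0.5) was 0.905 between libraries 1 and 2, 0.889 between 1 and 3, and 0.901 between 2 and 3. These are correlations across 9504 genes, which share libraries and are not independent replicates. Read depth is not given by FPKM, and the spread between the 3 libraries is the only measure of precision.

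The label of lens cells was checked against marker genes. Of 17 loci of lens markers found, 13 were expressed, beside 9504 of all 16288 ranked loci. The FPKM of the list summed to 1531, 1332 and 2106 in libraries 1, 2 and 3. Most of this sum came from crystallins, with CRYAA alone at 792, 719 and 962 FPKM. MIP, HSF4 and CRYBA4 were among the lens markers that were not expressed by this limit, and LIM2, FOXE3 and PITX3 were not found by name. Markers of red blood cells summed to 12.9, 11.9 and 10.0 FPKM, all of it from ALAS2, the erythroid enzyme of heme synthesis, while every globin gene found was listed at 0. Markers of retina and neurons summed to 3.76 to 6.12 FPKM, with 2 of 15 loci expressed, and those of pigmented cells to 2.94 to 4.08 FPKM, with 2 of 9 expressed. The list for mesenchyme, cornea and muscle summed to 54.8, 45.2 and 130 FPKM, with 8 of 22 loci expressed. Most of that sum came from TAGLN, the actin-binding protein transgelin, at 27.9, 24.6 and 96.6 FPKM. Other expressed members included POSTN at 8.90, 7.73 and 12.1 FPKM and DES at 2.62, 3.02 and 2.89 FPKM. The joined locus of COL3A1 was at 2.31, 1.98 and 2.78 FPKM and ACTA2 at 1.23, 1.31 and 4.19 FPKM. Not all expressed members are named here, and those left out are not all below DES in mean level. In contrast, LUM, PRRX1, TWIST1, MYOD1 and MYF5 were listed at 0, and COL1A1 and COL1A2, the chains of type I collagen, reached at most 0.47 FPKM. Endothelial and immune markers summed to 38.5, 34.3 and 30.01 FPKM, and none of the 12 loci was listed at 0 in all 3 libraries. Of these 12, 8 were expressed, a share near that of all ranked loci (9504 of 16288). It was the largest expressed share of the lists for other cell types. There, CDH5, the endothelial cadherin, was at 7.99, 6.52 and 4.09 FPKM and PECAM1 at 4.92, 4.56 and 2.96 FPKM, while the 2 highest values, for PTPRC and LYZ, came from loci joined to a neighbouring gene. A low level in a bulk library may be a few cells of another type or a little RNA in many cells, and these cannot be told apart. Nor does a 0 by itself show that a marker was absent, since 13 protein genes of the mitochondrial genome were also listed at 0.

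The most abundant transcripts of the untreated cells coded for the actin and vimentin cytoskeleton, ribosomes, glycolysis and 1 crystallin. The 3 ranked loci over 1000 FPKM were ACTB, cytoplasmic beta actin, TMSB4X, the actin-sequestering peptide thymosin beta 4, and VIM, the intermediate filament vimentin of lens cells. ACTB was at 1653, 1760 and 3059 FPKM in libraries 1, 2 and 3 (2157 ± 782 FPKM, SD, n = 3). TMSB4X was at 2131, 2291 and 1874 FPKM (2098 ± 210 FPKM), and it, not ACTB, was the highest locus in libraries 1 and 2. VIM was at 1625, 1616 and 1979 FPKM (1740 ± 207 FPKM), so the ranges of these 3 genes overlapped and their order was not fixed between libraries. VIM stood apart from the next locus, RPS2, a protein of the small ribosomal subunit at 997 ± 80.0 FPKM, since its lowest library was above the highest of RPS2 (1085 FPKM).

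Below them, the fifth to the tenth place were within the spread of the replicates. GAPDH, the glyceraldehyde phosphate dehydrogenase of glycolysis, was at 956 ± 190 FPKM and LDHA, the lactate dehydrogenase subunit that favours lactate formation, at 934 ± 336 FPKM. LDHA was highest in library 3, with 780, 703 and 1319 FPKM. EEF1A1, the elongation factor that brings transfer RNAs to the ribosome, was at 862 ± 90.4 FPKM, FTH1, the iron-storing ferritin heavy chain, at 848 ± 136 FPKM, and RPSAP58, a copy of the gene for ribosomal protein SA, at 828 ± 219 FPKM. CRYAA, the small heat shock protein alpha A crystallin, took place 10 at 824 ± 125 FPKM.

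Places 11 to 30 held more genes of glycolysis, actin and translation, no further crystallin, and several genes of other functions. OAZ, the antizyme that limits polyamine synthesis, was at 700 ± 59.1 FPKM, and ITGB1BP3, a nicotinamide riboside kinase gene also known as NMRK2, was at 666 ± 48.3 FPKM with 700, 688 and 611 FPKM in the 3 libraries. Glycolysis added ENO1, enolase, at 643 ± 96.5 FPKM and PGK1, phosphoglycerate kinase, at 341 ± 86.4 FPKM. Actin biology added ACTG1, gamma actin, at 482 ± 116 FPKM, the thymosin TMSB15B at 418 ± 67.2 FPKM, and the actin-severing proteins DSTN at 357 ± 9.48 FPKM and CFL2 at 299 ± 29.4 FPKM. RAN, the GTPase of nuclear transport, was at 461 ± 92.2 FPKM. The locus of the chaperone HSPA8, left out of the ranking by its name, had a mean of 425 FPKM, between those of RAN and TMSB15B. Translation supplied EIF4G2, EIF4A2, EIF5 and TPT1 between 317 and 416 FPKM, and ribosomal proteins RPS10, RPS20, RPL34, RPL37, RPS3, RPS16 and RPL7A between 310 and 570 FPKM, so that 9 of the 30 loci were of this protein family, counting RPSAP58. ACTB and ACTG1, and many ribosomal protein genes, have near-identical copies, and their levels are uncertain to the extent that reads were divided among copies. The loci of ACTB, EIF4G2, EIF4A2, EIF5 and RPL7A are also joined to small RNAs, which follow the gene in the name of the locus. Their FPKM need not equal that of the gene alone.

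**Figure D1:**
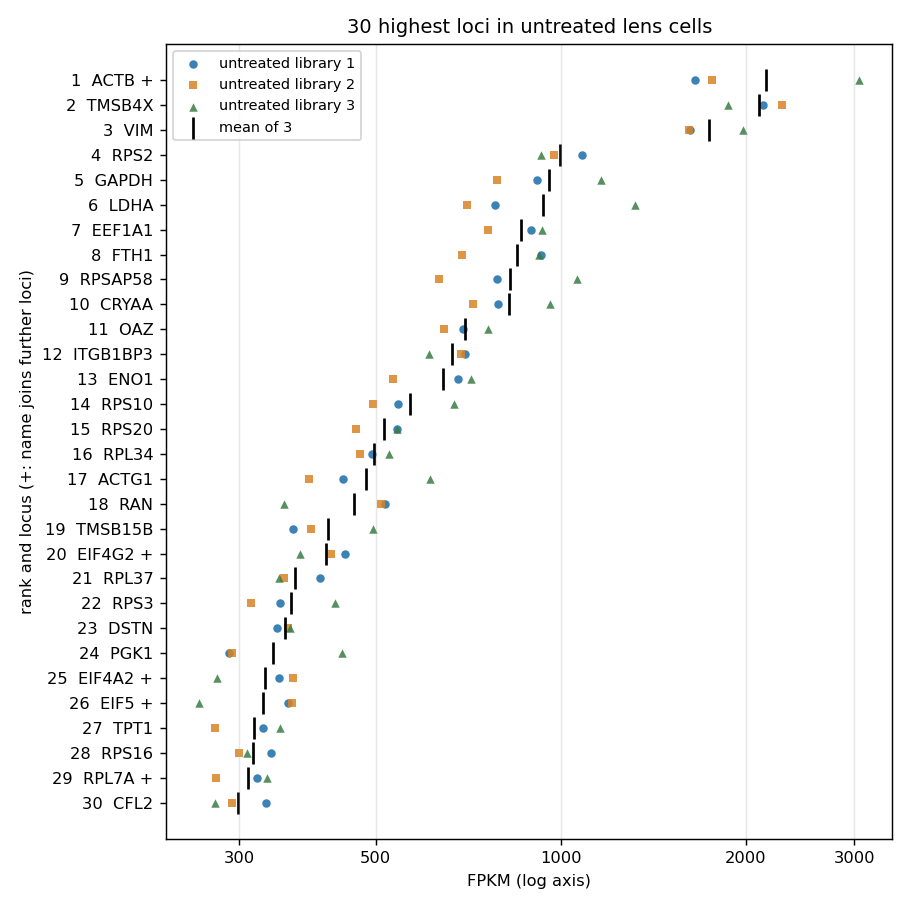
FPKM on a log axis for the 30 loci with the highest mean in untreated lens cells, ordered by rank; colored points are the 3 libraries and the bar is their mean. ACTB in library 3 (3059 FPKM) lies far to the right of its other libraries, and most neighbouring rows overlap.

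The plot of the 30 highest loci shows how close neighbours were: values overlapped in 28 of 29 neighbouring pairs, the exception being VIM and RPS2. The membership was steadier than the order, and 23 loci were among the 30 highest in each of the 3 libraries. The 10 highest loci together held 9.13%, 8.74% and 10.0% of the FPKM of libraries 1, 2 and 3, the 30 highest 15.9 ± 0.562% (SD, n = 3) and the 100 highest 25.5 ± 0.804%. Ranks 31 to 100 held more ribosomal proteins and, among others, THBS1, the matrix protein thrombospondin, at 203, 234 and 307 FPKM and S100A10, an S100 family partner of annexin at the membrane, at 136, 104 and 348 FPKM, which were picked out after their values were seen.

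Crystallins made up 1.30 ± 0.252% of the FPKM (SD, n = 3), with 1.25%, 1.08% and 1.57% in libraries 1, 2 and 3. The table held 11 loci for the 12 crystallin genes looked for, and 10 of them were expressed. CRYAA, at 792, 719 and 962 FPKM, was the highest crystallin in every library and held 47.9% of all crystallin FPKM. It ranked 8, 7 and 7 among all ranked loci in libraries 1, 2 and 3, and its lowest library was above the highest of any other crystallin locus. This order and share take the delta crystallins from 1 joined locus, whose FPKM need not equal that of its delta genes. CRYAB, alpha B crystallin, which many tissues outside the lens also make as a chaperone, was at 148, 133 and 258 FPKM (180 ± 68.0 FPKM). CRYAA exceeded CRYAB by 3.73-fold to 5.40-fold within a library.

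The delta crystallin genes ASL1 and ASL2 lie in a locus that the assembly joined with their neighbour GUSB, the lysosomal enzyme beta-glucuronidase, so the 2 delta genes could not be read apart and no ratio between them was computed. That locus was at 252, 220 and 385 FPKM (285 ± 87.5 FPKM), second among crystallins in every library and rank 35 of all loci. CRYAA was 2.50-fold to 3.28-fold above it on the FPKM scale, although the FPKM of a joined locus need not equal that of its delta genes.

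The beta crystallins, which associate into dimers and larger oligomers in fiber cells, spanned a wide range. CRYBB2 was at 201, 135 and 304 FPKM (213 ± 85.6 FPKM) and CRYBA2 at 151, 104 and 244 FPKM (167 ± 71.3 FPKM), both lowest in library 2 and highest in library 3. The delta locus, CRYBB2, CRYAB and CRYBA2 followed each other within their spread, and CRYAB and CRYBA2 changed places between library 1 and the others. CRYBB3 was at 23.2, 20.6 and 28.3 FPKM (24.0 ± 3.88 FPKM), below the lowest library of CRYBA2, and overlapped with CRYBA1, the beta A3/A1 crystallin, at 14.5, 8.49 and 39.3 FPKM. CRYBB1 was at 1.70, 2.14 and 4.20 FPKM, so CRYBB2 exceeded it by 62.9-fold to 118-fold. CRYBA4 was listed at 0 in all 3 libraries. In RefSeq's GRCg7b annotation, which is not the galGal6 assembly of these data, it lies within the span of CRYBB1. Whether reads of CRYBA4 and CRYBB1 were counted apart was not tested.

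Gamma crystallins were the lowest class. CRYGS, the gamma S crystallin, was at 6.97, 2.45 and 4.60 FPKM, and CRYGN, the gamma N crystallin, at 0.79, 1.39 and 2.42 FPKM. CRYGS was the only expressed crystallin that was not highest in library 3: it was highest in library 1. Enzymes that bear the crystallin name were also low, with CRYZ, a quinone reductase, at 4.71, 3.66 and 6.10 FPKM, CRYZL1 at 3.42, 5.24 and 3.57 FPKM, CRYL1 at 2.36, 3.60 and 3.41 FPKM, CRYM at 2.52, 2.95 and 1.62 FPKM, and CRYBG2 listed at 0.

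Replicate spread was wide for the crystallins. Their median coefficient of variation (CV, the SD as a percentage of the mean) was 41.5%, beside 23.0% over all expressed loci. All expressed crystallins but CRYGS, 9 of 10, had their highest value in library 3, and the count was the same with libraries scaled to the same sum or the same median. The median ratio of library 3 to the mean of libraries 1 and 2 was 1.82 for crystallins and 1.10 for all expressed loci. CRYBA1 had the largest ratio of highest to lowest library, 4.63, and CRYAA at 15.1% and CRYBB3 at 16.2% had the smallest CVs. TAGLN and the summed mesenchymal markers were also highest in library 3, and their part in the crystallin pattern was not tested.

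**Figure D2:**
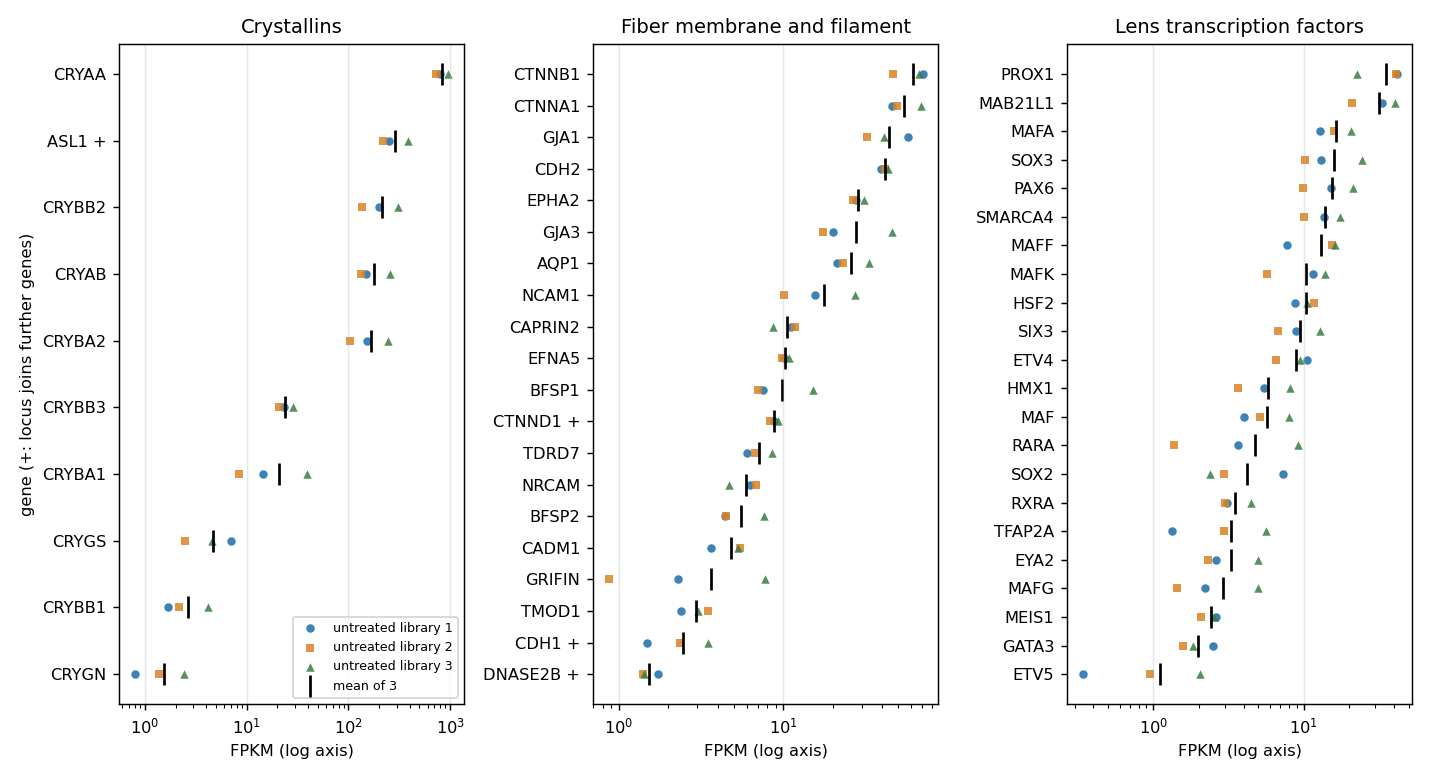
FPKM on a log axis of expressed crystallins, fiber membrane and filament genes, and lens transcription factors, without genes that are not reported here; colored points are the 3 untreated libraries and bars their means. Library 3 is the rightmost point for 9 of 10 crystallins, while for PROX1 and SOX2 it is the leftmost.

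Genes of the fiber cell membrane and beaded filament lay well below the major crystallins. Of 27 loci found, 21 were expressed and none reached 100 FPKM. GJA3, a connexin of lens fibers, was at 20.1, 17.5 and 45.7 FPKM, lowest in library 2 and highest in library 3. GJA1, the connexin of the lens epithelium, did not follow it: it was at 57.5, 32.3 and 41.1 FPKM and was highest in library 1.

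Water channels were divided. AQP1, the aquaporin of the epithelium, was at 21.3, 23.0 and 33.4 FPKM, whereas MIP, aquaporin 0 and the most abundant membrane protein of mature fibers, was listed at 0 in library 1 and at 1.23 and 1.69 FPKM in libraries 2 and 3, and AQP5 was listed at 0. The beaded filament genes were low but present in every library, with BFSP1, filensin, at 7.55, 7.01 and 15.1 FPKM and BFSP2, phakinin, at 4.40, 4.48 and 7.67 FPKM. BFSP1 exceeded BFSP2 by 1.56-fold to 1.97-fold. GRIFIN, a galectin-related lens protein, was at 2.30, 0.87 and 7.80 FPKM.

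Among the adhesion genes the catenins led. CTNNB1, beta catenin, was at 70.2, 46.3 and 67.1 FPKM, CTNNA1, alpha catenin, at 45.8, 48.9 and 68.3 FPKM, and NCAM1, a neural cell adhesion molecule, at 15.5, 10.1 and 27.3 FPKM. CDH2, N-cadherin, which joins both epithelial and fiber cells of the lens, was among the steadiest genes at 39.0, 41.7 and 43.1 FPKM (41.3 ± 2.08 FPKM). It exceeded the joined locus of CDH1, E-cadherin, by 12.4-fold to 26.4-fold. EPHA2, the ephrin receptor of lens epithelium and fibers, was also steady at 27.9, 26.5 and 31.1 FPKM, next to its ligand EFNA5 at 10.1, 9.88 and 10.8 FPKM. CAPRIN2 was at 11.2, 11.8 and 8.68 FPKM and TDRD7, a granule protein needed for fiber maturation in mice, at 6.02, 6.77 and 8.57 FPKM. On the whole list, 14 of 21 expressed loci were highest in library 3, and 11 of 21 with libraries scaled to the same sum.

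The cytoskeleton as a group held a larger share of FPKM than the crystallins. The lists are of unlike size, with 37 loci for actin and 11 for crystallins, so the shares depend on which genes were listed. The median level over all loci of the crystallin list was 24.0 FPKM. The 37 loci of the actin list held 5.44 ± 0.324% of FPKM (SD, n = 3), 36 were expressed and their median level over all loci of the list was 30.8 FPKM, beside 1.96 FPKM over all ranked loci. Actin itself came from the cytoplasmic forms: ACTB exceeded ACTG1 by 3.73-fold to 4.99-fold, and the smooth muscle forms ACTA2 at 1.23, 1.31 and 4.19 FPKM and ACTG2 at 0.23, 0 and 0.46 FPKM were near the floor. PFN1, profilin, and MSN, moesin, which ties actin to the membrane, were at 196 ± 8.84 and 149 ± 14.2 FPKM. The contractile genes MYH9 (non-muscle myosin heavy chain) at 44.5, 48.2 and 71.8 FPKM, CALD1 (caldesmon) at 31.3, 21.7 and 39.5 FPKM, the joined locus of MYL12A (myosin light chain) at 20.2, 15.9 and 54.7 FPKM and TPM1 (tropomyosin) at 23.4, 23.7 and 38.8 FPKM were each highest in library 3. Widest spread, here and for the lists below, means the largest ratio of highest to lowest library among members with a mean of at least 5 FPKM. CNN2, calponin 2, had it, with 2.14, 2.26 and 11.7 FPKM. In all, 27 of 36 expressed actin loci were highest in library 3, and 23 of 36 after scaling to the same sum, but TMSB4X, CFL2, PFN1 and MSN were not among them.

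Vimentin dominated the other filaments. VIM exceeded LMNB2, lamin B2 of the nuclear envelope, by 15.2-fold to 15.7-fold and LMNB2 itself was at 104, 107 and 127 FPKM. The epithelial keratins were low, with KRT19 at 6.01, 2.96 and 11.2 FPKM, and KRT5 was listed at 0. Tubulin came from the joined locus of TUBA1A and TUBA1B at 138 ± 45.3 FPKM, TUBB4B at 126 ± 28.7 FPKM, TUBB at 111 ± 36.6 FPKM and TUBB6 at 101 ± 7.41 FPKM, which overlapped one another; tubulin genes are also near copies. The motor and plus-end genes DYNC1H1 (dynein), at 98.4, 86.3 and 99.2 FPKM, and MAPRE1, at 84.3, 67.7 and 91.9 FPKM, exceeded KIF5B (kinesin), at 39.2, 45.5 and 23.1 FPKM, in every library. The spectrins SPTBN1 and SPTAN1, which line the fiber membrane, were at 41.2 ± 8.49 and 23.4 ± 5.79 FPKM.

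Transcripts of the capsule's basement membrane covered a wide range. SPARC, a collagen-binding matrix protein, was at 67.4, 45.5 and 95.7 FPKM, NID1, nidogen, at 43.2, 38.2 and 50.2 FPKM, LAMC1, the laminin gamma 1 chain, at 21.2, 15.2 and 31.1 FPKM and the joined locus of HSPG2, perlecan, at 13.2, 8.87 and 21.9 FPKM. The type IV collagen chains of the capsule were lower, with COL4A1 at 6.09, 6.35 and 8.38 FPKM and COL4A2 at 2.29, 3.56 and 7.09 FPKM, and so was LAMB1, a laminin beta chain, at 4.68, 3.43 and 8.24 FPKM. LAMB2 and AGRN, agrin, had means of 0.557 and 0.270 FPKM. All 10 expressed basement membrane loci were highest in library 3, as were 23 of 25 expressed loci of the whole list and 20 of 25 after scaling. The matrix genes TGFBI at 11.99, 8.0 and 16.9 FPKM, COL5A2, a fibrillar collagen chain with a higher level than COL4A1 in every library, at 7.02, 9.53 and 14.3 FPKM, and POSTN, periostin, at 8.90, 7.73 and 12.1 FPKM led the remainder. TNC, tenascin C, had the widest spread, 3.0-fold, and COL6A2 was listed at 0. Of the cell's laminin receptors, ITGA6 was at 45.8, 45.0 and 52.1 FPKM and ITGB1 at 45.4, 44.6 and 58.8 FPKM. ITGA3 was lower, at 5.99, 3.26 and 9.77 FPKM. ITGAV, the alpha V integrin, went the other way, with 99.8, 89.4 and 60.6 FPKM and its lowest value in library 3.

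**Figure D3:**
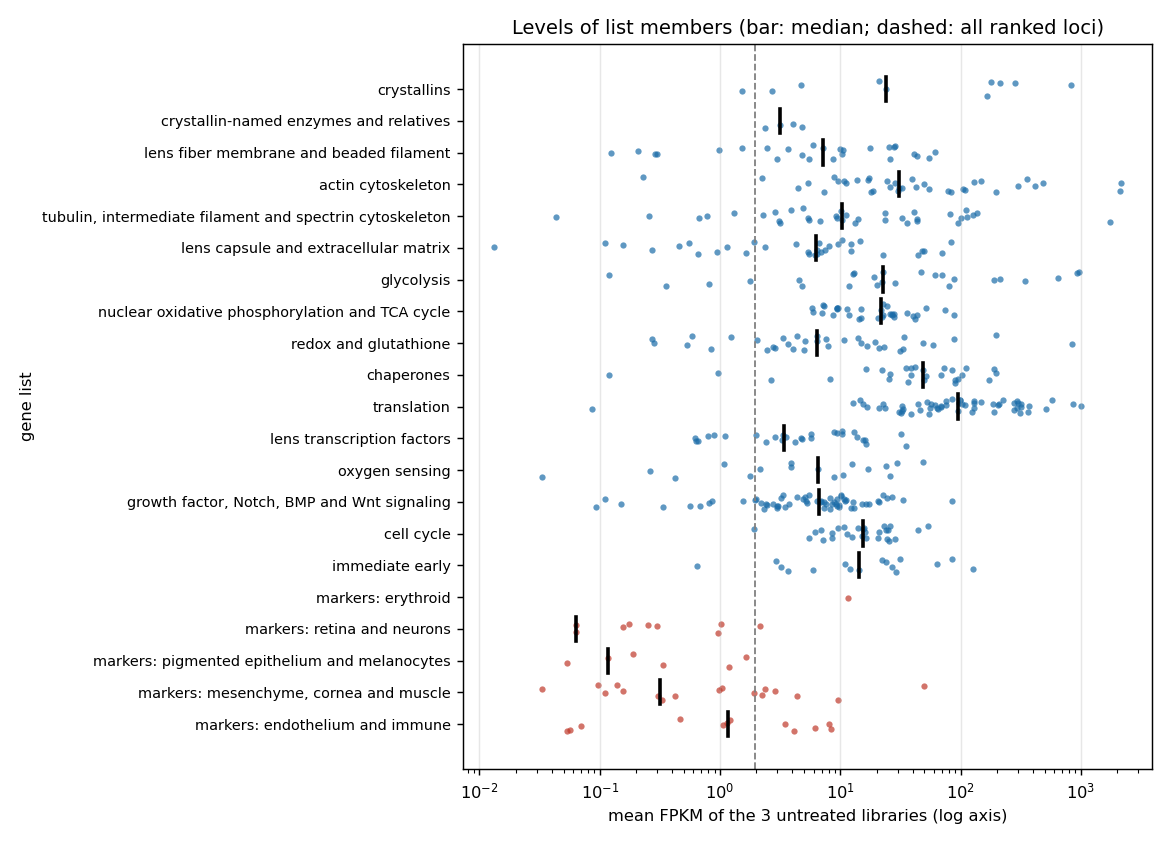
Mean FPKM over the 3 untreated libraries on a log axis, 1 point per locus, for each gene list; black bars are list medians and the dashed line is the median of all ranked loci (1.96 FPKM). Loci at 0 cannot be drawn; translation genes lie highest (median 95.8 FPKM) and the 5 lists of other cell types, in red, lie lowest.

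Glycolysis held the larger share of FPKM of the energy metabolism lists. Its 25 loci held 2.86 ± 0.454% of FPKM (SD, n = 3), compared with 0.602 ± 0.0120% for 33 listed loci of the nuclear genes of oxidative phosphorylation and the TCA cycle. The ranges did not overlap, but the shares depend on which genes were listed. The second list is a part of its pathways and leaves out COX4I2 and COX7C, at means of 150 and 135 FPKM. The lower arm, from GAPDH to lactate, carried most of the glycolysis share. After GAPDH, LDHA, ENO1 and PGK1 came LDHB at 204, 180 and 249 FPKM and PGAM1, phosphoglycerate mutase, at 183, 149 and 236 FPKM. LDHA exceeded LDHB, the subunit that favours pyruvate, by 3.82-fold to 5.29-fold. Enolase was almost wholly ENO1, which exceeded the neuronal form ENO2 by 586-fold to 1046-fold. ENO2 was not expressed by the limit used here, so the size of this ratio is uncertain.

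The upper arm was lower. ALDOC, the aldolase of brain, was at 58.5, 52.8 and 127 FPKM, and ALDOA was not found by name. GPI, glucose phosphate isomerase, was highest in library 1, at 94.1, 57.5 and 59.6 FPKM, and TPI1, triose phosphate isomerase, was at 42.1, 40.4 and 57.2 FPKM. PFKP led the phosphofructokinases at 15.3, 18.6 and 23.6 FPKM, above PFKL at 2.97, 2.16 and 8.39 FPKM and PFKM at 2.35, 1.5 and 1.5 FPKM. HK1 exceeded the joined locus of HK2 by 2.29-fold to 2.55-fold. The glucose transporter SLC2A1 was at 18.3, 19.7 and 28.2 FPKM, and of the lactate carriers SLC16A1 at 58.7, 58.5 and 66.0 FPKM exceeded SLC16A3 at 21.7, 23.7 and 22.3 FPKM in every library.

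The listed nuclear genes of oxidative phosphorylation and the TCA cycle were at moderate levels. All 33 loci of the list were expressed, 23 of them at 10 FPKM or more and none at 100 FPKM. Their median level was 21.6 FPKM and their median CV 18.8%, close to the 18.3% of all loci with a mean of 5 to 50 FPKM. The list left out COX4I2 and COX7C, subunits of cytochrome c oxidase, at 132, 150 and 169 FPKM and at 136, 154 and 116 FPKM. Within the list, the highest were ATP5A1Z, a subunit of the ATP synthase, at 78.0, 78.6 and 110 FPKM (88.7 ± 18.1 FPKM) and CYCS, cytochrome c, at 80.3, 72.3 and 69.2 FPKM (74.0 ± 5.71 FPKM). IDH3A, of the TCA cycle's isocitrate dehydrogenase, varied little at 40.2, 42.9 and 41.1 FPKM, and SDHC, a succinate dehydrogenase subunit, had the widest spread, with 9.49, 11.5 and 23.3 FPKM. In contrast, the 13 protein genes of the mitochondrial genome that the table names were all listed at 0 in all 3 libraries. Since every cell of this kind transcribes them, a value of 0 in this table does not by itself show that a transcript was absent.

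Redox genes were led by FTH1 and by TXN, thioredoxin, at 198, 177 and 217 FPKM (197 ± 19.8 FPKM). PRDX1, a peroxiredoxin, was at 88.3 ± 9.09 FPKM, SELENOW at 59.2 ± 4.09 FPKM, GPX4, the glutathione peroxidase of membrane lipids, at 48.9 ± 13.4 FPKM, and the joined locus of GSR, glutathione reductase, at 32.9 ± 3.27 FPKM. Other members were low: HMOX1, heme oxygenase 1, was at 3.03, 3.85 and 4.09 FPKM and NQO1 at 2.03, 0.50 and 0 FPKM. SLC7A11, the cystine transporter subunit, was at 0.10, 1.39 and 0.26 FPKM. Of the redox genes, 15 of 30 expressed loci were highest in library 3, near the 46.0% of all expressed loci. After scaling to the same sum the count was 8 of 30, below the 33.0% of all expressed loci.

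Chaperones were abundant, with a median level of 48.8 FPKM over 27 loci. TCP1 and its partners CCT7 and CCT8, subunits of the ring that folds actin and tubulin, were at 199 ± 23.1, 111 ± 16.1 and 104 ± 8.83 FPKM. The locus of TCP1 is also joined to a small RNA, which follows TCP1 in the name of the locus. HSP90AA1 was at 142, 219 and 209 FPKM and HSPD1, the mitochondrial chaperonin, at 164, 165 and 191 FPKM. HSPA2, an HSP70 family member, was far less steady, with 24.3, 45.5 and 85.1 FPKM. The locus of HSPA8, the constitutive HSP70, was left out by the rule on names because the assembly joined it to small RNA genes whose name comes first, and its mean was 425 FPKM. The 58 loci of the translation list held 7.25 ± 0.399% of FPKM, the largest share of the lists, with 57 expressed and a median CV of 16.0%. RPL38, a ribosomal protein, had the widest spread there, with 9.06, 22.1 and 12.6 FPKM.

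Transcription factors of the lens were found at low to moderate levels. Of 34 loci found, 23 were expressed, 9 of them at 10 FPKM or more. PROX1, the homeobox factor of fiber elongation, was highest at 41.6, 40.9 and 22.7 FPKM (35.1 ± 10.7 FPKM), followed by MAB21L1, a gene of the early lens placode, at 33.3, 21.0 and 40.7 FPKM. MAFA, the large MAF protein known in chick as L-Maf, was at 12.9, 15.8 and 20.6 FPKM, above its relative MAF at 3.99, 5.14 and 8.02 FPKM in every library. The ratio of MAFA to MAF was 2.56 to 3.23.

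PAX6, the factor that starts lens formation and stays on in the epithelium, was at 15.1, 9.87 and 21.3 FPKM, and SOX3 at 13.1, 10.2 and 24.5 FPKM and SIX3 at 8.94, 6.70 and 12.8 FPKM had the same order of libraries. SOX2 had another order, at 7.32, 2.97 and 2.37 FPKM, so SOX3 exceeded it by 1.79-fold in library 1 and 10.4-fold in library 3. Among the factors named for fibers, SMARCA4, a chromatin remodeler, was at 13.6, 10.1 and 17.6 FPKM and MAFF at 7.73, 15.3 and 16.2 FPKM, and MAFK at 11.5, 5.71 and 13.9 FPKM had the widest spread, a ratio of 2.43. HSF4, a heat shock factor of the mammalian lens, was at 0, 0.83 and 1.13 FPKM. OTX2, SIX6, TFAP2B and RAX, and PNOC, a neuropeptide gene on the placode list, were listed at 0, and FOXE3, PITX3 and MEIS2 were not found by name. In the list as a whole 16 of 23 expressed loci were highest in library 3, and 15 of 23 after scaling, while PROX1 and SOX2 were lowest there.

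The oxygen-sensing list holds HIF subunits, HIF regulators, among them the prolyl hydroxylases that the drug of the series inhibits, and HIF targets. In untreated cells 14 of its 17 loci were expressed and 7 reached 10 FPKM, with a median of 6.52 FPKM over all loci of the list. EGLN1, the prolyl hydroxylase PHD2 that marks HIF alpha subunits for degradation, was at 45.8, 50.9 and 49.2 FPKM (48.6 ± 2.59 FPKM). It exceeded EGLN3, PHD3, at 1.35, 2.06 and 1.87 FPKM, by 24.7-fold to 33.9-fold. HIF1AN, the asparagine hydroxylase of HIF, was at 20.2, 16.2 and 14.3 FPKM. HIF1A was at 34.8, 35.5 and 18.6 FPKM and EPAS1, HIF2 alpha, at 15.6, 30.6 and 32.1 FPKM, so their order reversed among replicates: HIF1A was 2.24-fold of EPAS1 in library 1, 1.16-fold in library 2 and 0.579-fold in library 3. Of their dimer partners, ARNT2 at 14.0, 9.11 and 14.4 FPKM exceeded ARNT at 3.67, 3.25 and 4.73 FPKM in each library. BNIP3L, a mitophagy receptor, was at 19.1, 25.3 and 26.9 FPKM and BNIP3 at 13.1, 6.54 and 12 FPKM, while VEGFA was at 3.72, 3.17 and 4.67 FPKM and STC1 at 0, 0.10 and 0 FPKM. The ubiquitin ligase SIAH1 had the widest spread, with 2.93, 11.1 and 12.5 FPKM.

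Of 64 signaling loci found, 54 were expressed and 18 reached 10 FPKM. TGFB2, a growth factor of the TGF beta family, was the highest at 72.0, 70.9 and 110 FPKM. Of the receptors, FGFR3 at 13.4, 11.6 and 23.8 FPKM exceeded the joined locus of FGFR1 at 7.99, 8.40 and 8.05 FPKM and FGFR2 at 5.62, 3.68 and 5.24 FPKM in every library, and the joined locus of IGF1R was steady at 19.9, 21.1 and 22.4 FPKM. FGF1 and FGF8 were listed at 0. SMAD5, which carries BMP signals, was at 23.3, 16.7 and 28.4 FPKM. The Notch ligand JAG1 was at 27.4, 24.8 and 27.9 FPKM and the receptor NOTCH2 at 24.2, 20.4 and 28.9 FPKM; JAG1 exceeded JAG2 by 3.71-fold to 7.25-fold and NOTCH2 exceeded NOTCH1 by 2.17-fold to 2.66-fold. FZD1, a Wnt receptor, was the highest Wnt gene of the list at 34.6, 34.6 and 30.7 FPKM, and WNT2B had the widest spread, with 2.18, 1.68 and 12.1 FPKM.

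Cell cycle genes were expressed at 28 of 30 loci, with a median of 15.4 FPKM. CDK1, the mitotic kinase, was at 54.7, 47.1 and 58.7 FPKM, PCNA, the DNA polymerase clamp, at 43.7, 43.9 and 46.1 FPKM, and MCM6, of the replication helicase, at 23.8, 22.6 and 38.4 FPKM. CCNA2, cyclin A, was at 19.6, 25.5 and 31.9 FPKM. The inhibitors that accompany cell cycle exit were transcribed beside them, with CDKN1B, p27, at 25.5, 16.8 and 29.3 FPKM and CDKN1A, p21, at 25.2, 24.7 and 19.9 FPKM, while CDKN2A and CDKN2B were listed at 0. MCM5 had the widest spread, with 9.46, 4.06 and 15.4 FPKM.

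Immediate early genes, which respond to serum and handling within minutes to hours, were uneven among the libraries. BTG1, an antiproliferative gene, was at 161, 170 and 49.3 FPKM and KLF6 at 70.7, 86.8 and 33.0 FPKM, both lowest in library 3. FOSL2, of the AP-1 family, was lowest in library 1 and highest in library 3, at 30.5, 105 and 118 FPKM, and MYC was at 3.75, 9.30 and 22.9 FPKM, a 6.11-fold range. JUN at 30.5, 23.0 and 34.0 FPKM and EGR1 at 25, 25.8 and 29.8 FPKM were steadier, FOS was at 2.18, 2.69 and 3.84 FPKM and NR4A1 was listed at 0. Library 3 was thus not uniformly higher or lower within this list.

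**Figure D4:**
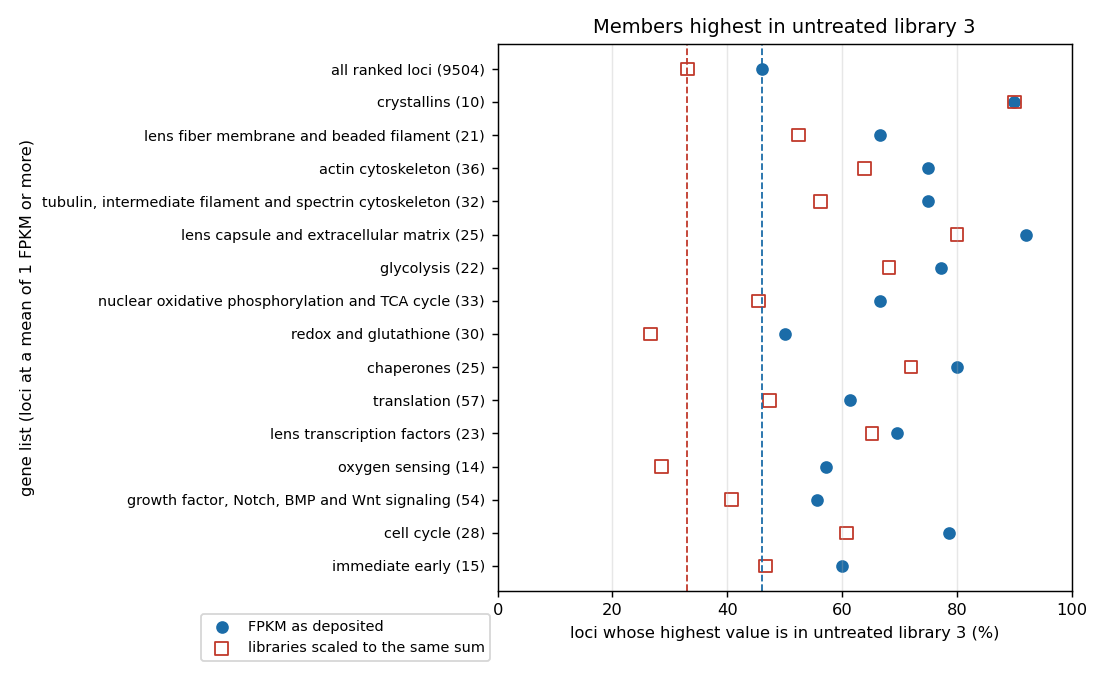
Percentage of expressed loci of each list whose highest value was in untreated library 3, as deposited (blue points) and with the libraries scaled to the same sum (red squares); dashed lines mark all expressed loci, 46.0% and 33.0%. Crystallins (9 of 10) and matrix genes (23 of 25) lie farthest right, and redox genes move below the line after scaling.

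The plot of members highest in library 3 sets these counts beside the background of all loci. Crystallins, matrix genes, chaperones, glycolysis, lens transcription factors, actin genes and cell cycle genes lay above 60% on both scales, beside 46.0% and 33.0% for all expressed loci. Being above these shares was not particular to them. Every list drawn was above 46.0% as deposited, and all but redox and oxygen sensing were above 33.0% with the same sum. The marker list for mesenchyme, cornea and muscle, with too few expressed loci to be drawn, had 5 of 8 highest in library 3 on both scales. After scaling to the same sum, redox genes (8 of 30) and oxygen-sensing genes (4 of 14) lay below 33.0%, but with libraries scaled to the same median oxygen sensing had 5 of 14, above the 33.3% of all expressed loci on that scale. These counts describe library 3 and are not a test.

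Across all expressed loci the replicate spread depended on the level. The median CV was 32.3% for 4009 loci with a mean of 1 to 5 FPKM, 18.3% for 5166 loci of 5 to 50 FPKM and 13.3% for 329 loci of at least 50 FPKM. Among the 320 loci that have a symbol and a mean of at least 50 FPKM, 107 had a CV under 10% and 29 differed by at least 2-fold between the highest and the lowest library. The widest was CALM2, a calmodulin gene, at 178, 219 and 17.2 FPKM, a ratio of 12.7 that library 3 alone set. HMGN4, a nucleosome-binding protein, had the same ratio through library 1, at 10.5, 112 and 134 FPKM. Library 1 was also the low one for ARF4, a Golgi GTPase, at 15.5, 102 and 81.3 FPKM, CD164, a sialomucin, at 33.3, 133 and 95.0 FPKM, and RHOA, the GTPase of stress fibers, at 45.7, 167 and 147 FPKM. DBI, an acyl-CoA-binding protein, at 63.1, 75.5 and 13.9 FPKM, and the joined locus of DDAH1 and BCL10, at 45.6, 86.9 and 20.9 FPKM, were low in library 3, as was BTG1. FOSL2 and HSPA2 complete the 10 widest loci.

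The steadiest loci at this level had CVs below 3%. They are the 10 smallest CVs among 320 loci, and 3 libraries give an SD with wide error, so some may be steady by chance. The joined locus of FKBP1A and SDCBP2 was at 53.7, 53.5 and 53.5 FPKM (CV 0.255%). ETF1, the translation release factor, was at 101, 101 and 99.2 FPKM and IPO7, a nuclear import receptor, at 114, 112 and 111 FPKM. MLF2, RAB11B (a recycling endosome GTPase), CNI, H2AFZ (a histone variant), HSD17B12, SLC35E3 and DSTN had CVs from 1.60% to 2.66%. ACTB, GAPDH and EEF1A1, which are often used as references, were not among them: ACTB had a CV of 36.3%, GAPDH of 19.9% and EEF1A1 of 10.5%. All of these CVs are on FPKM as deposited, which summed to 127034, 125159 and 141864 in libraries 1, 2 and 3. They were not recomputed with the libraries scaled to the same sum. A locus that is level as deposited would be lowest in library 3 after such scaling, so the contrast with the references holds for deposited FPKM only.

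**Figure D5:**
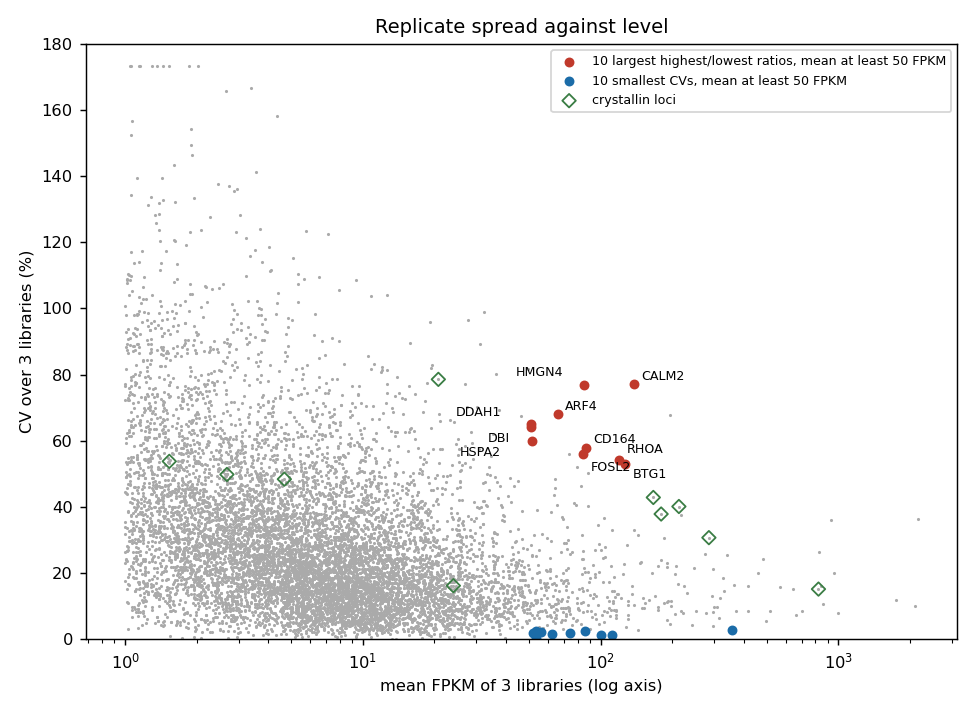
CV over the 3 untreated libraries (in percent) against mean FPKM on a log axis for 9504 expressed loci (grey); red and blue points are the 10 widest and the 10 steadiest loci whose mean reached 50 FPKM, and green diamonds the crystallins. The cloud narrows as the level rises, and CALM2 and HMGN4 (CV 77.3% and 77.0%) stand above loci of like level.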

How the data were processed

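RNA-seq was made from total RNA of primary lens cells with a stranded total RNA kit and sequenced in pairs. Per the methods, Cutadapt removed adaptors, Bowtie2 and HISAT2 mapped the reads to galGal6, and StringTie assembled transcripts, so that a locus can join several genes. The authors deposited FPKM per library, rounded to 2 decimals. The tools' versions are not given in the sources used here. The deposited fold changes and p-values of the authors' own comparison, and the treated libraries, were not used.

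Means, SDs, CVs and ranks were computed from the 3 untreated columns with Python 3.11.15, pandas 2.3.3 and numpy 2.4.6; figures used matplotlib 3.10.9. The calculation of CVs and ranks was tested on simulated data. Loci whose name begins with RF0, gga-mir or gga-let were left out, and loci that name a gene first and a small RNA after it were kept. Depth is unknown: ratios of low values between libraries showed no steps of whole reads, the fullest window of 0.1 on the log2 scale holding 4.90% to 5.15% of them.

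No test was run, because there is 1 group. Named genes were taken from the 30 highest loci, all crystallins, up to 4 highest members of each role in a gene list, members listed at 0, the widest member at a mean of at least 5 FPKM, and the 10 widest and 10 steadiest loci at 50 FPKM or more; other genes named were chosen after their values were seen. The members and lists were chosen with earlier results of these data known. Alternatives were other limits, averages, scalings and pseudocounts, and leaving out each library. Some list members are counted but not reported here by name.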

Additional observations from a re-analysis of the deposited data

How the results depend on the processing

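The low-value limit moved the count of expressed loci most: a mean of at least 5 FPKM left 5495 of the 9504. Keeping the small RNA loci lowered the crystallin share from 1.30% to 0.918% and raised that of the 10 highest loci from 9.29% to 26.7%. The median CV, 23.0%, was 17.9% at a limit of 5 FPKM, 13.3% at 50 FPKM and 31.4% with every locus above 0. On the log2 scale it was 25.7% with a pseudocount of 0.1 and 20.9% with 1. Over 2 libraries, leaving out each in turn, it was 16.6% to 19.9%. A median CV from 2 values tends to be lower than from 3, so these values do not show that leaving out a library reduced the spread. Of 351 ranks recomputed for named loci under other averages, scalings and left-out libraries, 315 stayed within the spread of their library ranks. All of these ranks came from the same 3 libraries, so staying within that spread says little about how firm they are. For the 30 highest loci, 264 of 270 recomputed ranks were still among the 30, 3 loci left it, and the lowest place taken was 36. Counts of members highest in library 3 under scaling, ratios of highest to lowest library under scaling, and the crystallin share without the joined delta locus were added after the data were seen. No paired analysis was possible because 1 group was described and no test was run. Depth, and how reads were divided among near-identical or overlapping genes, limit every level given.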
